A study of Homo sapiens with 112 samples.

Results

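Darolutamide was given at 2 µM to VCaP prostate cancer cells together with 1 nM of the synthetic androgen R1881, and polyA RNA was sequenced at 8 h and at 22 h. The comparison described here asks, gene by gene, whether the effect of the drug differed between these times. The effect at a time was the difference in log2 expression between R1881 plus 2 µM darolutamide and R1881 alone, and the value followed throughout was the effect at 22 h minus the effect at 8 h. A positive value therefore marks a gene whose drug effect lay higher at 22 h than at 8 h, and the same value is obtained by subtracting the 8 to 22 h change with R1881 alone from the 8 to 22 h change with R1881 plus darolutamide. It was estimated from 29 of 55 VCaP libraries and for 19266 of 58684 listed genes, those with at least 10 reads in at least 4 VCaP libraries.

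All cells had been starved of hormone in charcoal-stripped serum before treatment. The compared groups were R1881 with DMSO vehicle for 8 h (10 libraries), R1881 with DMSO for 22 h (9 libraries), R1881 with 2 µM darolutamide for 8 h (5 libraries) and R1881 with 2 µM darolutamide for 22 h (5 libraries). For reference, VCaP cells that received DMSO in place of both agents were available at 8 h (10 libraries) and 22 h (8 libraries), cells on R1881 with 500 nM darolutamide at both times (4 libraries each), and the same groups in a further prostate cancer line, LAPC4. VCaP is 1 established line, so the replicates are cultures of that line and not different tumours.

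Androgens bind a receptor that moves to the nucleus and switches genes on or off near its DNA sites, and darolutamide competes for that receptor. VCaP cells came from a vertebral metastasis and carry the TMPRSS2-ERG fusion, which puts the transcription factor ERG under an androgen-driven promoter. In such cells androgen raises secreted proteases and lipid and secretory pathway genes, and at higher doses it can slow the cell cycle.

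The 29 libraries held 15798498 to 25125789 reads assigned to genes (median 21114084), and no pair within a group was close enough to be 1 library deposited in duplicate. ERG had 1578 to 21554 reads in every VCaP library and at most 1 read in LAPC4. Of 20 markers of other cell types, CD3E, COL1A2, KRT5 and HBB were at 0 in all 29 libraries, and PTPRC had at most 2 reads. Others were detected in every one of the 29 libraries, with 2 to 64 reads for VWF, 7 to 35 for COL1A1, 2 to 205 for LUM and 10 to 89 for ACTA2. The summed level of the marker list without albumin (ALB) was 5.81 to 8.07 CPM (reads scaled to a common library total) with R1881 at 8 h and 13.8 to 15.5 with R1881 plus darolutamide, and 3.53 to 6.47 against 9.80 to 11.6 at 22 h. ALB itself had 36 to 1062 reads and is described with the markers below. The part of these levels in the results was not tested.

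The effect of the drug differed between 22 h and 8 h for 9353 genes, or 48.5% of those tested (edgeR quasi-likelihood test, Benjamini-Hochberg adjusted p below 0.05). It was higher at 22 h for 5275 genes (27.4%) and lower for 4078 genes (21.2%). A difference of more than 1 on the log2 scale was reached by 1971 of them (10.2%), with 1114 above 1 (5.78%) and 857 below -1 (4.45%). The median over all genes tested was 0.06, and the median size of a called difference was 0.55. Measured separately, the drug changed 10038 genes at 8 h (52.1%) and 12896 genes at 22 h (66.9%). The 8 h changes were 49.8% increases with the trimmed-mean (TMM) scaling used here, and 67.1% increases with library totals alone, a scaling that moved the median 8 h effect from 0.01 to 0.12.

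The most common patterns were effects that were called at 22 h and not at 8 h, or that grew in the direction already present at 8 h. Among genes with a higher effect at 22 h, 2062 were raised by the drug at 22 h with no call at 8 h and 1460 were raised at both times. Among genes with a lower effect, 1300 were lowered at 22 h with no call at 8 h and 1199 were lowered at both. A smaller number changed direction: 597 genes were lowered at 8 h and raised at 22 h, and 643 were raised at 8 h and lowered at 22 h. In 591 genes a fall called at 8 h was not called at 22 h, and in 594 genes the same held for a rise. Across genes the 22 h effect followed the 8 h effect with Pearson's r = 0.587 and Spearman's rho = 0.537 over 19266 genes, which are not independent replicates.

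**Figure D1:**
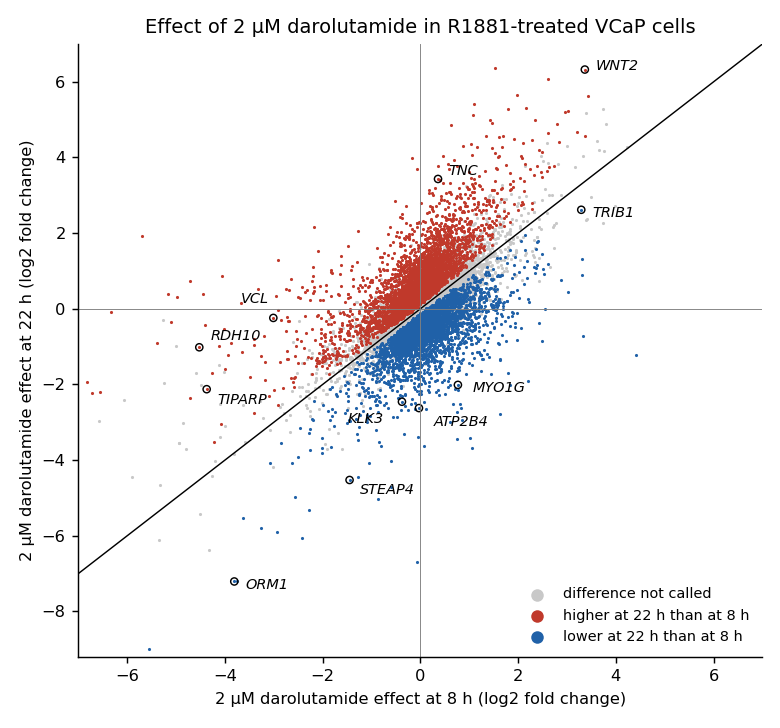
Effect of 2 µM darolutamide (log2 fold change against R1881 alone) at 8 h on the x axis and at 22 h on the y axis, with 1 point per gene tested; red and blue points are genes whose effect was called higher or lower at 22 h, grey points were not called, and the black line marks equal effects. STEAP4 lies far below the line at -1.45 and -4.53, RDH10 and VCL lie far above it on the left, and ATP2B4 sits on the vertical axis with no fall at 8 h.

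For most of the strongly differing genes it was the R1881 cells that moved further between the times. Of the 1971 genes with a difference past 1, the change from 8 to 22 h was larger in size with R1881 alone for 1537. It was larger with R1881 plus darolutamide for 434. Both arms were called for 928, where 71% of all genes were called with R1881 and 52.1% with R1881 plus darolutamide. Among all 9353 genes with a called difference, the R1881 change was larger for 6377, and 4720 were called in both arms. The matching shares over all genes tested were not counted, so whether these counts are particular to the differing genes was not tested. Over all genes, 8 to 22 h changes past 1 on the log2 scale were called for 2878 genes with R1881 (14.9%), 1346 with R1881 plus darolutamide (6.99%) and 220 with DMSO (1.14%). The named genes below are therefore given as levels in every arm.

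Classical androgen-induced genes were lowered further by the drug at 22 h than at 8 h. KLK3, on chr19:50854915-50860764 of GRCh38, encodes prostate-specific antigen. With R1881 its level was 33.5 to 46.9 CPM at 8 h (median 37.6) and 177 to 204 CPM at 22 h (median 190), while with R1881 plus darolutamide it was 25.4, 27.0, 29, 29.6 and 37.5 CPM at 8 h and 33.5, 34.8, 35.0, 35.3 and 35.5 CPM at 22 h. The groups overlapped at 8 h and were far apart at 22 h. The effect was -0.38 ± 0.07 (SE) at 8 h and -2.46 ± 0.07 at 22 h, a difference of -2.08 ± 0.10 (adjusted p = 2.71e-25, edgeR quasi-likelihood test). Without hormone the gene stood at 14.2 to 18.8 CPM at 8 h and 14.9 to 20 CPM at 22 h, so it remained above the DMSO level in all drug-treated libraries.

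TMPRSS2, a membrane serine protease, showed the same course at a higher level. It rose in R1881 libraries from 489 to 559 CPM at 8 h to 1794 to 1943 CPM at 22 h, and with darolutamide it stood at 211, 219, 220, 222 and 229 CPM and then at 195, 210, 215, 224 and 230 CPM. All drug-treated libraries lay below all R1881 libraries at both times. The difference between the times was -1.86 ± 0.05 on the log2 scale, of which 1.82 ± 0.03 was the rise with R1881 alone. Its fusion partner ERG, a transcription factor of the ETS family, had effects of -0.67 ± 0.04 and -1.43 ± 0.04, a difference of -0.76 ± 0.05. KLK2, the protease gene beside KLK3, changed less, by -0.88 ± 0.05, from 3798 to 4329 CPM with the drug at 8 h to 3759 to 4183 CPM at 22 h against 8159 to 8743 CPM with R1881.

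In a further set of androgen targets the level fell between 8 and 22 h in the presence of the drug, while it held or rose with R1881. STEAP4, a metalloreductase of the plasma membrane on chr7:88270892-88306894, was 337 to 435 CPM (median 391.9) with R1881 at 8 h and 877 to 1095 CPM (median 949) at 22 h. With darolutamide it was 141, 141, 142, 149 and 153 CPM at 8 h and 37.8, 41.2, 41.5, 43.7 and 44.1 CPM at 22 h. No libraries of the compared groups overlapped. The effect went from -1.45 ± 0.05 to -4.53 ± 0.07, a difference of -3.08 ± 0.08 (adjusted p = 1.51e-37, edgeR quasi-likelihood test).

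FKBP5, a co-chaperone of steroid receptors, and NCAPD3, a subunit of condensin II, had the same shape with large effects already at 8 h. FKBP5 was 459, 467, 480, 492 and 496 CPM with the drug at 8 h and 182, 188, 192, 200 and 205 CPM at 22 h, against 2691 to 3188 CPM and 3031 to 3579 CPM with R1881. Its effect was -2.62 ± 0.04 and then -4.07 ± 0.05, and the drug-treated cells still held more FKBP5 than DMSO cells at 22 h (67.3 to 76.2 CPM). For NCAPD3 the effects were -2.27 ± 0.04 and -3.72 ± 0.05, and drug-treated libraries went from 728 to 780 CPM to 385 to 465 CPM. The acute-phase glycoprotein genes ORM1 and ORM2 had the most negative differences under the naming rule, -3.40 ± 0.22 and -3.46 ± 0.16, with ORM1 at 1.77 to 2.13 CPM with the drug at 8 h and 0.225 to 0.523 CPM at 22 h against 51.8 to 60.1 CPM with R1881. The 2 genes are near-identical neighbours on chromosome 9, so how reads were shared between them is uncertain.

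Some androgen-induced genes showed no fall with the drug at 8 h and were little raised by R1881 at that time. ATP2B4, a calcium pump of the plasma membrane on chr1:203626832-203744081, was 21.4 to 31.6 CPM with R1881 at 8 h and 25.2, 25.6, 26.6, 27.1 and 27.6 CPM with darolutamide, so the groups overlapped. At 22 h it was 202 to 245 CPM with R1881 (median 222) and 32.2, 35.9, 36.6, 38 and 38.2 CPM with darolutamide. The effect was -0.03 ± 0.05 at 8 h (adjusted p above the threshold) and -2.63 ± 0.06 at 22 h.

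MYO1G, a class I myosin, crossed zero. R1881 libraries held 3.74 to 8.19 CPM at 8 h (median 4.64), beside 6.85 to 15 CPM with DMSO (median 10.4), and 29.2 to 49.0 CPM at 22 h (median 37.8). With darolutamide the level was 7.80, 8.61, 9.91, 10.2 and 10.4 CPM at 8 h and 7.93, 8.11, 9.13, 10.1 and 13.2 CPM at 22 h, which overlapped with DMSO at both times. The drug effect was 0.77 ± 0.17 and then -2.01 ± 0.17, a difference of -2.78 ± 0.24.

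Across the androgen response list, 45 of 64 genes tested had a lower effect at 22 h, 11 a higher effect and 8 were not called. Over all genes 21.2% were lower and 27.4% higher. The median difference of the list was -0.63 beside 0.06 over all genes. The median effect of the list was -0.52 at 8 h and -1.15 at 22 h. SAT1, which breaks down polyamines, was among the most negative members at -2.29, SLC45A3 was at -1.54, and ACPP, prostatic acid phosphatase, was at -1.07. The 11 members with a higher effect included the kinase SGK1 at 1.70, the membrane protein ANKH at 1.26 and the protease ADAMTS1 at 1.04. The list was chosen for androgen regulation and holds genes the hormone is known to move, so its direction is no independent evidence. The mean log2 CPM of the list was 7.77 to 7.88 with R1881 and 7.10 to 7.16 with the drug at 8 h, and 8.16 to 8.27 against 6.86 to 6.94 at 22 h.

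**Figure D2:**
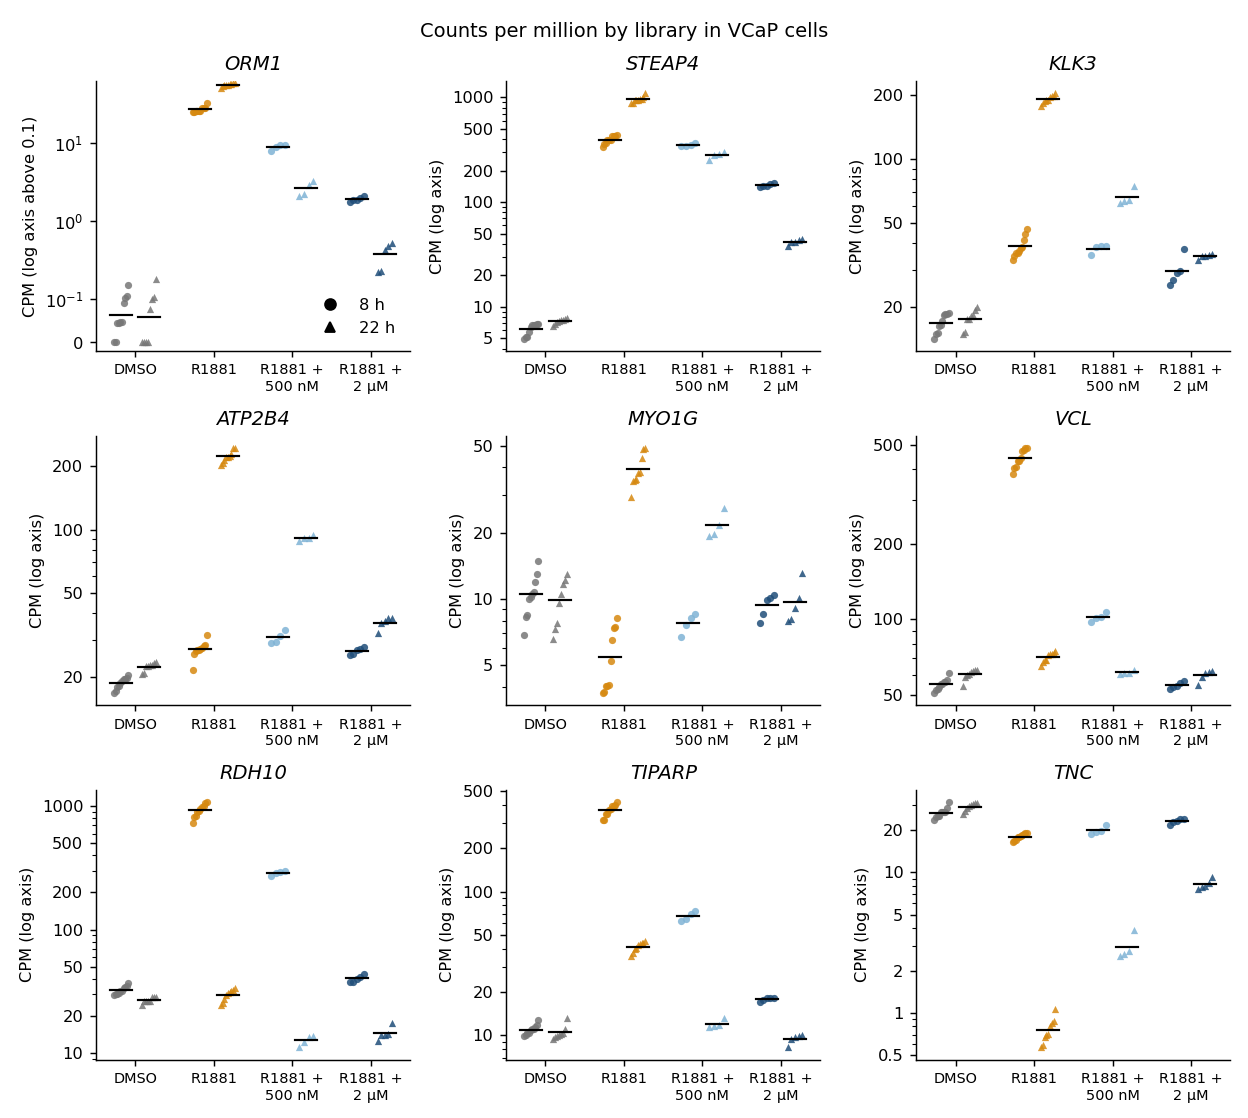
CPM of 9 genes in each VCaP library (log axis; for ORM1 linear below 0.1), with circles for 8 h and triangles for 22 h, sorted by value within a group, and a line at the group mean. ATP2B4 and KLK3 separate R1881 from darolutamide mainly at 22 h, whereas VCL, RDH10 and TIPARP are highest with R1881 at 8 h.

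A different group of androgen-induced genes was high with R1881 at 8 h and had returned close to the hormone-free level at 22 h, so that a large drug effect at 8 h became small. RDH10, a retinol dehydrogenase on chr8:73294602-73325281, was 726 to 1076 CPM with R1881 at 8 h (median 932) and 24.7 to 33.8 CPM at 22 h (median 30.4). With darolutamide it was 37.8, 37.8, 40.1, 41.7 and 44.1 CPM at 8 h and 12.6, 14.1, 14.2, 14.4 and 17.6 CPM at 22 h. Drug-treated libraries lay above the DMSO range at 8 h (29.7 to 37.1 CPM) and below it at 22 h (24.5 to 28.6 CPM). The effect was -4.52 ± 0.08 and then -1.02 ± 0.08, a difference of 3.51 ± 0.11 (adjusted p = 2.17e-33, edgeR quasi-likelihood test).

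VCL, which encodes the focal adhesion protein vinculin on chr10:73995193-74121363, returned almost completely. It was 380 to 486 CPM with R1881 at 8 h and 64.9 to 75.1 CPM at 22 h, against 52.6, 53.9, 54.1, 55.9 and 57 CPM and 54.6, 58.8, 61.3, 61.6 and 62.2 CPM with darolutamide. The drug-treated libraries overlapped with DMSO at both times. The effect shrank from -3.01 ± 0.05 to -0.24 ± 0.05, a difference of 2.77 ± 0.06. TIPARP, an ADP-ribosyltransferase, kept part of its effect, which was -4.37 ± 0.07 at 8 h and -2.13 ± 0.07 at 22 h, as R1881 libraries went from 315 to 418 CPM to 35.7 to 45.3 CPM and drug-treated libraries from 16.9 to 18.1 CPM to 8.23 to 9.99 CPM.

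For PHF19, a partner of Polycomb complexes, and TBC1D1, a GTPase-activating protein for Rab proteins, the effect passed from negative to positive. PHF19 had effects of -2.17 ± 0.07 and 0.59 ± 0.06, with 70.0 to 90.8 CPM in R1881 libraries at 8 h and 18.2 to 24.5 CPM at 22 h. TBC1D1 had effects of -2.19 ± 0.07 and 0.41 ± 0.08. The death receptor gene TNFRSF10B had effects of -1.36 ± 0.06 and 0.13 ± 0.06. SRD5A1, a steroid 5-alpha-reductase that makes dihydrotestosterone, had -1.16 ± 0.07 and 0.17 ± 0.07. For both TNFRSF10B and SRD5A1 the drug-treated and R1881 libraries overlapped at 22 h.

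Other genes with positive differences also fell with R1881 between 8 and 22 h, and their effect at 22 h was a rise. TNC, the matrix protein tenascin-C on chr9:115019575-115118207, was 16.5 to 19.1 CPM with R1881 at 8 h and 0.567 to 1.06 CPM at 22 h. With darolutamide it was 21.7, 22.8, 23.0, 23.8 and 23.8 CPM at 8 h and 7.64, 7.88, 7.99, 8.32 and 9.18 CPM at 22 h, and DMSO libraries held 23.4 to 31.5 and 25.9 to 30.9 CPM. At 22 h the drug-treated libraries thus lay between the R1881 and the DMSO range without touching either. The effect was 0.36 ± 0.06 and then 3.43 ± 0.09.

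WNT2, a secreted ligand of the Wnt pathway, was already low with R1881 at 8 h (3.93 to 5.35 CPM) and lower at 22 h (0.185 to 0.842 CPM). Darolutamide kept it at 44.8, 46.9, 46.9, 47.2 and 49.9 CPM and at 39.15, 41.4, 42.4, 42.4 and 44.7 CPM, below the DMSO range of 98.8 to 107 and 78.6 to 89.0 CPM. Its effect of 3.36 ± 0.07 grew to 6.32 ± 0.10, although the level in drug-treated cells changed by only -0.17 ± 0.07. KHDRBS3, an RNA-binding protein of the STAR family, had no called effect at 8 h (0.02 ± 0.06) and 2.79 ± 0.07 at 22 h, when R1881 libraries held 3.17 to 4.50 CPM and drug-treated libraries 23.8 to 28.4 CPM. ITGA9, an integrin alpha chain, went from -0.90 ± 0.07 to 1.60 ± 0.08.

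Among rises that were smaller at 22 h, TRIB1 and B3GALT5 had the largest 8 h effects under the naming rule, not the largest shrinkage. TRIB1, which encodes a pseudokinase, was 31.3 to 50.9 CPM with R1881 at 8 h and 81.4 to 95.9 CPM at 22 h, against 378, 431, 432, 433 and 434 CPM and 500, 512, 537, 541 and 584 CPM with darolutamide. DMSO libraries were higher still at 1185 to 1339 and 1372 to 1483 CPM. The drug effect was 3.29 ± 0.06 and then 2.62 ± 0.06. For B3GALT5, a galactosyltransferase, the values were 2.39 ± 0.07 and 1.77 ± 0.08.

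Genes of DNA replication all gained a higher effect at 22 h. Of 48 tested, 48 were called higher (27.4% of all genes), with a median of 1.00 and a range from 0.49 for PRIM2 to 1.77 for GINS3. At 8 h the drug effect on the list was mixed, with 23 members higher, 8 lower and a median of 0.13 (25.9% and 26.2% of all genes), and at 22 h all 48 were higher with a median of 1.09 (36.1% of all genes were higher). The median 8 to 22 h change of the list was 0.16 with R1881, 1.19 with R1881 plus darolutamide and -0.00 with DMSO. Compared with DMSO at 22 h, R1881 plus darolutamide had all 48 members higher with a median of 1.41, where 30.5% of all genes tested were higher.

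PCNA, the sliding clamp of DNA polymerases, was 147 to 166 CPM with R1881 at 8 h and 177 to 189 CPM at 22 h. With darolutamide it was 165, 167, 167, 168 and 174 CPM at 8 h, overlapping with R1881, and 401, 407, 409, 421 and 431 CPM at 22 h. DMSO libraries at 22 h held 122 to 142 CPM, so the drug-treated cells were above both references. The effect was 0.12 ± 0.03 and then 1.16 ± 0.03. MCM4, a subunit of the replicative helicase, had effects of 0.29 ± 0.03 and 1.43 ± 0.03, with 476 to 534 CPM in drug-treated libraries at 22 h against 182 to 204 CPM with R1881.

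Mitosis genes were also called higher without exception, 52 of 52 (27.4% of all genes), with a median of 0.89 and a range from 0.30 for ECT2 to 1.53 for SPC25. Their course in the references was another one: the list rose from 8 to 22 h with a median of 0.68 with R1881, 1.61 with R1881 plus darolutamide and 1.29 with DMSO. The drug effect had a median of -0.08 at 8 h, with 4 members higher and 16 lower (25.9% and 26.2% of all genes). At 22 h the median was 0.82, with 52 higher (36.1% of all genes). Against DMSO at 22 h, 45 of the 52 were higher with R1881 plus darolutamide and the median was 0.35. The mean log2 CPM of the list at 22 h was 5.32 to 5.48 with R1881, 5.79 to 5.88 with DMSO and 6.15 to 6.29 with R1881 plus 2 µM darolutamide, which are separate ranges. In bulk RNA, more cells in a phase and more RNA per cell cannot be told apart.

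CDCA5, the cohesin regulator sororin, and KIF20A, a kinesin of the dividing cell, are the members named by the rule. CDCA5 was 46.7 to 56.0 CPM with R1881 and 53.2 to 59.2 CPM with the drug at 8 h, and 59.5 to 69.6 CPM against 160, 161, 164, 164 and 168 CPM at 22 h. KIF20A was 47.1, 48.2, 50.2, 50.5 and 53.6 CPM with the drug at 8 h, below the R1881 libraries (70.8 to 85.9 CPM), and 139, 147, 159, 160 and 166 CPM at 22 h, above them (83.9 to 102 CPM). The KIF20A effect turned from -0.66 ± 0.04 to 0.73 ± 0.04, and at 22 h the drug-treated libraries overlapped with DMSO (133 to 145 CPM).

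**Figure D3:**
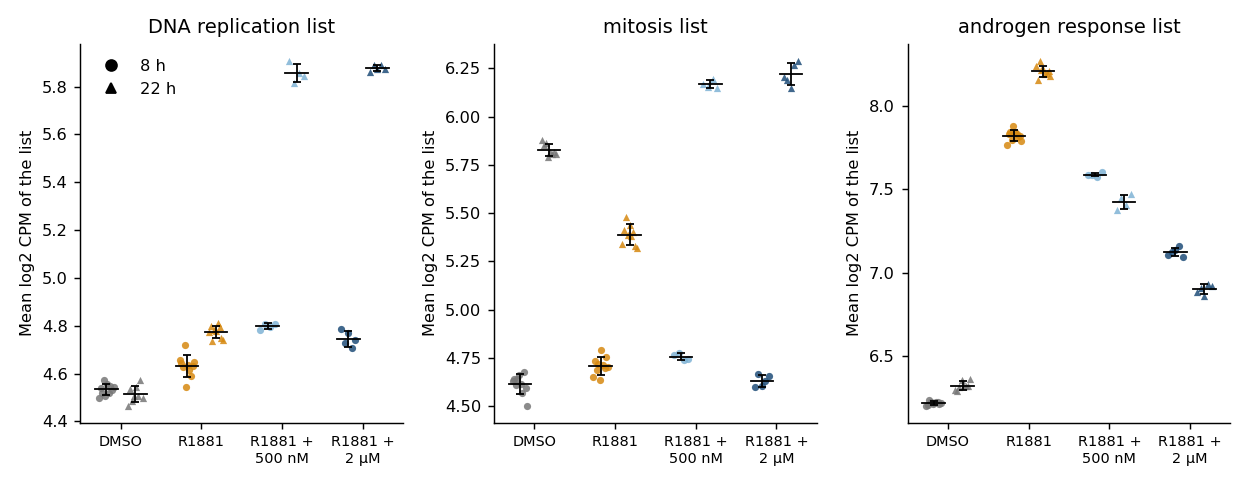
Mean log2 CPM of the DNA replication, mitosis and androgen response lists in each VCaP library, with circles for 8 h and triangles for 22 h and bars for the group mean ± SD. The replication level with R1881 plus 2 µM darolutamide was 4.71 to 4.79 at 8 h and 5.86 to 5.89 at 22 h, above the 22 h range of both R1881 (4.74 to 4.81) and DMSO (4.47 to 4.57).

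The bases before the RefSeq start (GRCh38.p14) of KLK3 and of 3 of these cell cycle genes are shown because the lists that moved in opposite directions are the androgen targets and the cell cycle genes, whose promoters are known for different short motifs. Each run is the 250 bases before the start, read along the gene. Capitals mark CCAAT (or ATTGG on the other strand), TTTGAA (or TTCAAA), TTTCCCGC (or GCGGGAAA) and AGAACA (or TGTTCT), which are the CCAAT box, a core of the cell cycle homology region, an E2F-type motif and a short site bound by steroid receptors. No matches overlapped.
KLK3 chr19:50854665-50854914, plus strand: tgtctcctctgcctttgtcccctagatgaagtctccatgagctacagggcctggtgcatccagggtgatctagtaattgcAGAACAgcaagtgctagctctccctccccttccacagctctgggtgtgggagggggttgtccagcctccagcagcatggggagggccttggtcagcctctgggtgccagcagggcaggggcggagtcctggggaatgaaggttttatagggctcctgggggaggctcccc
PCNA chr20:5126623-5126872, minus strand: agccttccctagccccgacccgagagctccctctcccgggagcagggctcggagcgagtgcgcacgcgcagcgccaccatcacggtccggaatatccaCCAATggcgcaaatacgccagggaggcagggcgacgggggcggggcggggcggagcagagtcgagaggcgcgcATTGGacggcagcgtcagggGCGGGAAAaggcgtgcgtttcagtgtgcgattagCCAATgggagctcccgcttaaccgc
CDCA5 chr11:65084041-65084290, minus strand: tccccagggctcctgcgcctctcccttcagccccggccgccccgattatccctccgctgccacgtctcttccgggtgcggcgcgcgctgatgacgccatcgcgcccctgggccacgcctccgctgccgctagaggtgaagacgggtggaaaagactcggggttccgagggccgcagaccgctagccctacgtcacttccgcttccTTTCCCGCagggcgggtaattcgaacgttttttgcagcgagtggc
KIF20A chr5:138178862-138179111, plus strand: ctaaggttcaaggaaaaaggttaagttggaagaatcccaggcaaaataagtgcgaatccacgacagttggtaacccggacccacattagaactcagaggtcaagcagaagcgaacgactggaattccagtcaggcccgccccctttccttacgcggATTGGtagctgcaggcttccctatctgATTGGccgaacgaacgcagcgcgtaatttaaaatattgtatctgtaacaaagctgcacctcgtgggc
KLK3 had AGAACA 170 bases before its start, PCNA had 3 CCAAT matches and TTTCCCGC at 59 bases, CDCA5 had TTTCCCGC at 45 bases, and KIF20A had CCAAT matches at 94 and 67 bases. Over all 35116 RefSeq windows (27305 genes), 32.0% held CCAAT, 13.3% TTTGAA, 1.39% TTTCCCGC and 12.4% AGAACA. Those windows were not limited to the genes tested, whereas the windows of the lists were, so the 2 kinds of share are not fully alike. Among 51 windows of 40 matched replication genes (of 48), 56.9% held CCAAT, 1.96% TTTGAA, 17.6% TTTCCCGC and 5.88% AGAACA. Among 54 windows of 44 matched mitosis genes (of 52), 75.9% held CCAAT, 50.0% TTTGAA, 3.7% TTTCCCGC and 7.41% AGAACA. Matching was incomplete for every list, at 83.3% of replication and 84.6% of mitosis genes. It was lowest for the androgen response list, at 50 of 64 genes (78.1%), and the check was taken as void for that list. Its 82 windows held AGAACA in 8.54%, a lower share than over all windows, CCAAT in 41.5%, TTTGAA in 7.32% and TTTCCCGC in 2.44%, and the site shown before KLK3 describes that gene alone. These shares describe letters only, and binding was not measured.

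Ribosome biogenesis genes moved the same way by smaller steps. Of 47 tested, 34 had a higher effect at 22 h (27.4% of all genes), 1 a lower effect (NOP10, -0.19) and the median was 0.36. The drug raised 39 of them at 8 h (median 0.33) and 45 at 22 h (median 0.74), beside 25.9% and 36.1% of all genes. FBL, the methyltransferase fibrillarin, had the highest difference, 0.92 ± 0.05, and fell with R1881 from 134 to 147 CPM at 8 h to 77.1 to 91.7 CPM at 22 h while drug-treated libraries held 148 to 161.5 and 166 to 187 CPM. NCL, the nucleolar protein nucleolin, differed by 0.57 ± 0.04. In the list of targets of the stress factor ATF4 and of aminoacyl-tRNA synthetases, 13 of 30 were higher and 5 lower with a median of 0.17. Over all genes 27.4% were higher and 21.2% lower. Members of the list included the glycyl-tRNA synthetase GARS at 0.53 ± 0.05 and DDIT4, an inhibitor of mTORC1 signalling, at -1.22 ± 0.09.

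Secretory pathway genes leaned to lower effects at 22 h, and 34 of the 38 vesicle trafficking genes rose from 8 to 22 h with R1881 (33.3% of all genes). For vesicle trafficking 26 of 38 were lower (21.2% of all genes), none was higher and the median was -0.30. COPG1, a coatomer subunit, was 219 to 246 CPM with R1881 at 8 h and 402 to 428 CPM at 22 h, against 152 to 162 and 142 to 155 CPM with the drug, a difference of -0.92 ± 0.05. TMED3, a cargo receptor, turned from 0.26 ± 0.04 to -0.75 ± 0.04.

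Among genes for folding in the endoplasmic reticulum and the unfolded protein response, 25 of 47 were lower, 6 higher and the median was -0.17. Over all genes 21.2% were lower and 27.4% higher. The drug lowered 38 of the 47 at 8 h (median -0.58, where 26.2% of all genes were lower) and 44 at 22 h (median -0.85, where 30.8% were lower). The membrane-bound transcription factor CREB3L4 and the disulphide reductase DNAJC10 differed by -1.02 ± 0.05 and -1.21 ± 0.07. The chaperone HSPA5 was among the 6 with a higher effect, at 0.26.

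Lipid synthesis genes were mixed, with members called in both directions and others not called. SCD, the desaturase that makes monounsaturated fatty acids, was 296 to 359 CPM with R1881 at 8 h and 2885 to 3436 CPM at 22 h, while with darolutamide it was 333, 345, 346, 362 and 375 CPM and then 1341, 1454, 1458, 1499 and 1531 CPM. DMSO libraries at 22 h held 458 to 513 CPM, so drug-treated libraries lay between. The effect went from 0.12 ± 0.04 to -1.11 ± 0.04. FADS2, another desaturase, differed by -1.44 ± 0.08. Of 26 genes of fatty acid synthesis and handling 11 were lower and 5 higher (median -0.15), beside 21.2% and 27.4% of all genes. The count of 5 higher was 3 without replicate 2 or 4 of the drug at 8 h, or without replicate 1 or 3 at 22 h.

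For cholesterol synthesis and uptake 9 of 25 were lower and 3 higher, beside 21.2% and 27.4% of all genes, with a median of -0.14. INSIG1, which restrains sterol synthesis, rose by 3.49 ± 0.05 with R1881 and by 2.47 ± 0.07 with R1881 plus darolutamide. All 25 members rose from 8 to 22 h with R1881 and 24 with R1881 plus darolutamide (33.3% and 25% of all genes rose), and 16 rose with DMSO (15.9%).

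**Figure D4:**
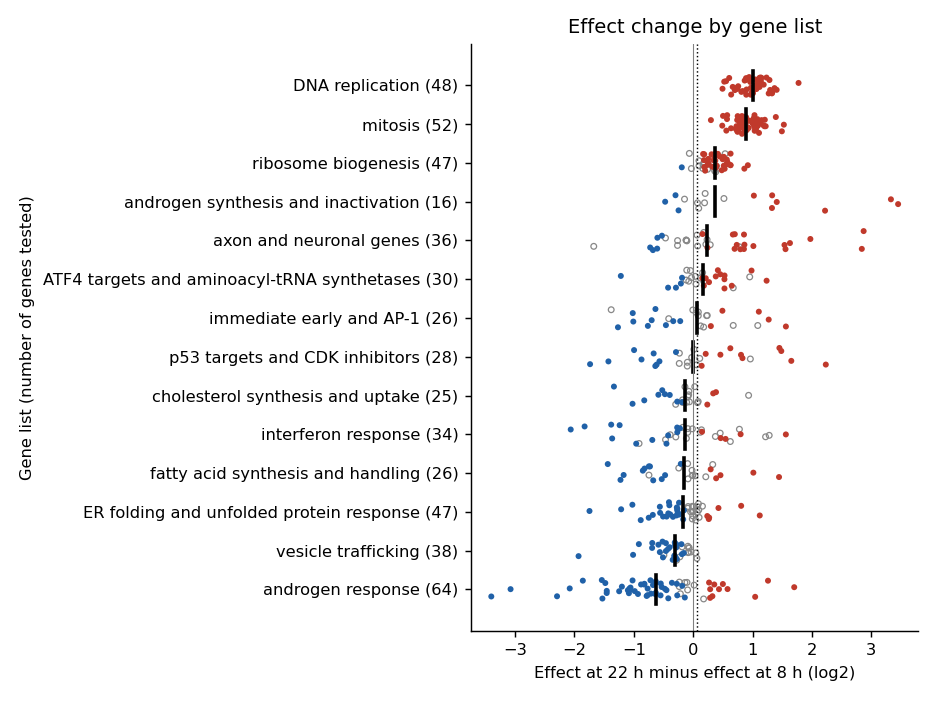
Effect at 22 h minus effect at 8 h (log2, x axis) for each tested gene of 14 lists (y axis, spread vertically at random), with red and blue for genes called higher and lower, open grey circles for genes not called, a black bar at each list's median and a dotted line at the median of all genes (0.06). The replication and mitosis lists lie wholly to the right, and the androgen response list has the lowest median, -0.63.

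Enzymes that make and inactivate androgens were split. Of 16 tested, 7 were higher and 3 lower, beside 27.4% and 21.2% of all genes, and the median was 0.36. The highest were the glucuronosyltransferases that inactivate androgens, UGT2B15 at 3.45 and UGT2B17 at 3.33, which share reads with near-identical paralogs and are uncertain singly. HSD17B6, a dehydrogenase of androgen metabolites, was 3.30 to 4.98 CPM with R1881 and 9.24 to 12 CPM with the drug at 8 h, and 1.95 to 3.18 CPM against 15.9 to 19.4 CPM at 22 h, where it overlapped with DMSO (14.9 to 18.8 CPM). Its effect rose from 1.35 ± 0.07 to 2.75 ± 0.08.

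Of 36 neuronal and axon guidance genes, 17 were higher and 5 lower, with a median of 0.24, beside 27.4% higher and 21.2% lower over all genes tested. R1881 lowered 26 of the 36 between 8 and 22 h (37.6% of all genes fell). GRIN3A, a glutamate receptor subunit, was 13.4 to 18.3 CPM with R1881 at 8 h and 0.655 to 1.83 CPM at 22 h, against 11 to 12.55 and 5.33 to 7.45 CPM with the drug. At 22 h the drug-treated libraries overlapped with DMSO (5.43 to 7.38 CPM), and the difference was 2.84 ± 0.15. EPHA4, an ephrin receptor, differed by 1.55 ± 0.10.

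The stress and signalling lists showed no common direction. For comparison with their counts, 27.4% of all genes tested were higher and 21.2% lower. Targets of p53 and inhibitors of cyclin-dependent kinases had 10 higher, 9 lower and a median of -0.01 over 28, with AEN, a nuclease induced by p53, at 1.45 ± 0.08 and the kinase inhibitors CDKN2B and CDKN1A at -1.74 and -0.62. Immediate early genes had 5 higher and 9 lower of 26, with KLF4 and KLF6, zinc finger transcription factors, at -1.27 ± 0.09 and -1.01 ± 0.07 and a median of 0.07 that was -0.13 without replicate 3 of the drug at 22 h and -0.08 without replicate 2 at 8 h. Interferon response genes had 5 higher and 12 lower of 34 (median -0.14). OAS3, which makes 2-5A in antiviral defence, rose in effect from 0.56 ± 0.05 to 1.35 ± 0.05, whereas for the RNA sensor IFIH1 an effect of 0.93 ± 0.07 at 8 h was -0.03 ± 0.07 at 22 h.

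Markers of the line moved too, where 27.4% of all genes tested were higher and 21.2% lower. All 11 prostate and VCaP markers were called, 8 lower and 3 higher, and FOXA1, a pioneer factor of prostate epithelium, passed from 0.41 ± 0.03 to -0.31 ± 0.03. The keratins KRT8 and KRT18 were higher at 0.71 and 0.47, and FOLH1, prostate-specific membrane antigen, at 0.43. Of the other cell type markers 8 were tested, with 4 higher and 1 lower. Among them ALB was 23.9 to 50.0 CPM with R1881 and 40 to 44.5 CPM with the drug at 8 h, and 2.22 to 3.22 CPM against 19.4 to 23.3 CPM at 22 h, with DMSO at 114 to 125 CPM.

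At 500 nM the difference between 22 and 8 h was called for 6680 genes (34.7%), and past 1 for 951 (4.94%). It was tested directly against that at 2 µM, with the R1881 libraries shared by both. The doses differed for 1156 genes (6%), of which 642 were higher at 2 µM (3.33%) and 514 lower (2.67%), or 521 and 721 with library totals alone. RDH10 had the largest gap among the named genes: 0.46 ± 0.11 at 500 nM and 3.51 ± 0.11 at 2 µM, a dose difference of 3.04 ± 0.13. At 8 h RDH10 was still 274, 285, 293 and 300 CPM with 500 nM, and at 22 h it was 11.1 to 13.7 CPM. TIPARP differed between doses by 1.58 ± 0.12 and STEAP4 by -1.48 ± 0.09, with STEAP4 at 341, 344, 349 and 368 CPM and then 252, 282, 290 and 299 CPM under 500 nM.

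At 500 nM 47 of 48 replication genes and 52 of 52 mitosis genes were higher (18.3% of all genes), with medians of 0.95 and 0.75, and the dose difference was called for 1 of the 48 and 5 of the 52, beside 6% of all genes. PCNA differed between doses by 0.11 ± 0.05 and MCM4 by 0.04 ± 0.05, neither past the threshold. FKBP5 gave -1.64 ± 0.06 at 500 nM and -1.46 ± 0.05 at 2 µM, and its dose difference of 0.18 ± 0.07 was not called (adjusted p = 0.094, edgeR quasi-likelihood test).

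**Figure D5:**
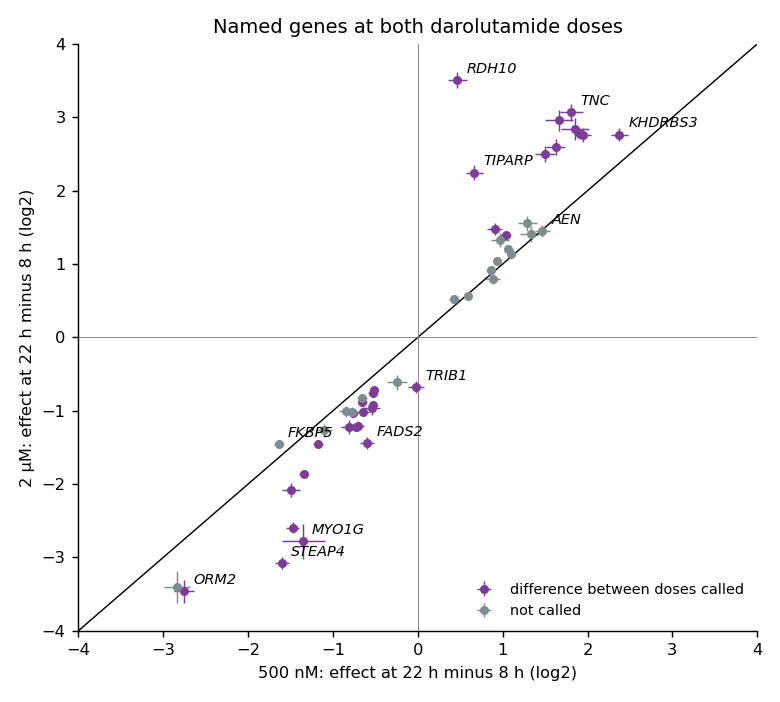
Effect at 22 h minus effect at 8 h (log2) of the 49 named genes with 500 nM (x axis) and 2 µM darolutamide (y axis), with bars for the SE; purple points are genes whose dose difference was called, grey points were not called, and the line marks equality. RDH10 (0.46 and 3.51) and TIPARP (0.67 and 2.25) lie farthest above the line, and AEN (1.47 and 1.45) lies on it; both axes share the R1881 libraries.

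In LAPC4 cells the same contrast, from 10 libraries of R1881 and 5 of R1881 plus 2 µM darolutamide at each time, was called for 323 of 18204 genes (1.77%), and past 1 for 18 (0.0989%). The difference between the lines was called for 6310 of 16578 genes tested in both (38.1%). All 48 replication genes and all 52 mitosis genes differed between the lines, being higher in VCaP (18.8% of all genes), with median line differences of 1.16 and 0.91. In LAPC4 itself 13 replication genes were lower (1.12% of all genes), none was higher and the median was -0.19, and no mitosis gene was called (median -0.07). Of 62 androgen response genes tested, 25 were lower in LAPC4 with a median of -0.19, and the line difference was not called for 16 of them and had a median of -0.34. For KLK2 the values were -0.88 ± 0.05 in VCaP and -0.79 ± 0.18 in LAPC4, and the line difference of -0.15 ± 0.16 was not called, while STEAP4 was -3.08 ± 0.08 and 0.11 ± 0.10 and differed by -3.25 ± 0.13.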

How the data were processed

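The authors sequenced polyA RNA from the cell cultures described below as stranded single-end libraries. Per the labels and their methods, reads were converted with bcl2fastq 2.17, aligned with STAR to GRCh38 and counted per gene with featureCounts. The deposited table holds whole-number read counts per gene symbol, not normalized, with 1 column per library named by its sample title. The annotation release and strand setting used for counting are not given in the sources used here, so overlapping genes and paralogs are uncertain. The methods state 5 biological replicates per condition, whereas the R1881 and DMSO groups hold more libraries, and the labels do not say whether replicates above 5 were run at another time. P-values measure the spread between these libraries. With R1881 replicates 1 to 5 alone 8523 genes were called for the difference, and with 6 and above 8079.

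All 55 VCaP libraries (8 groups) were fitted together in edgeR 4.0.16 (R 4.3.3) with TMM scaling after a filter on low counts (10 or more reads in 4 or more of them). Contrasts were tested with the quasi-likelihood F test, p-values were adjusted by Benjamini-Hochberg over all genes tested, and an adjusted p below 0.05 was called. Log2 differences come from this fit, with SE as the size of the difference divided by the square root of F. CPM are counts divided by the TMM-scaled library total, on the usual CPM scale. LAPC4 and the line difference were fitted in the same way on all libraries. In data simulated from these libraries with 200 changed genes, 78% were recovered (100% at -2, 85% at -1, 55% at 0.5) and 6.02% of calls were false. The simulation held no other group effects, whereas 48.5% of genes were called in the data, so these rates may not carry over.

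The members, gene lists and tests were chosen with earlier results of these data known. Named genes were, by rule, the 5 most positive and 5 most negative differences among well-expressed called genes, those whose effects were called in opposite directions, effects that shrank, the leading 2 members of each list, and 8 fixed androgen targets and line genes. Genes outside the rule that are given values were chosen from the lists after their values were seen. Gene positions are from GENCODE 44 (33465 symbols matched directly and 1596 by an older symbol). Alternatives were DESeq2 1.42.0, other scalings and filters, fewer groups or R1881 libraries, a GC covariate, a replicate block and leaving out single libraries. Replicate numbers were not taken as pairs of libraries, for the reason given below. Results for some genes named by this rule or held in the lists are not reported here.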

Additional observations from a re-analysis of the deposited data

Results flagged for a closer look

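The effect of 2 µM darolutamide differed between 22 h and 8 h for 9353 genes by the test of the difference itself. The same difference was not equal at 2 µM and 500 nM for 1156 genes, and not equal in VCaP and LAPC4 for 6310 genes, again by direct tests.

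Single libraries stood apart from their group in 6 of 208 gene and group combinations examined (2.88%, where about 5% would be flagged by chance). The measure is the gap to the nearest library as a share of the group's range on the log2 CPM scale. ORM1 was high in replicate 8 of R1881 at 8 h with a share of 0.506. ATP2B4 was low in replicate 1 of R1881 at 8 h with 0.472. TRIB1 was low in replicate 3 of R1881 plus 2 µM darolutamide at 8 h with 0.954, at 378 CPM beside 431 to 434 CPM. B3GALT5 was high in replicate 5 of R1881 at 8 h with 0.468. TIPARP was low in replicate 2 of R1881 plus 2 µM darolutamide at 22 h with 0.737, at 8.23 CPM. CREB3L4 was low in replicate 6 of R1881 at 22 h with 0.607. The 49 named genes kept their direction and call without any single library of the 2 drug-treated groups. R1881 libraries were not left out singly, so the flagged libraries of ORM1, ATP2B4, B3GALT5 and CREB3L4 were not checked in this way.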

How the results depend on the processing

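All 49 named genes kept the direction and the call of their difference under every alternative run, and the 48 replication and 52 mitosis genes stayed called higher in each. Most named genes were picked for large or strongly called effects in these same data, so their stability was likely beforehand and is no independent check. Of all 9353 calls, 7628 (81.6%) were kept with the replicate block, the lowest share among the alternatives. The count of called genes was 9353 and ranged from 8061 to 11067, with 9157 by DESeq2, 11067 with a GC covariate, 8766 of 38586 genes without a filter on low counts and 8947 to 9149 without single drug-treated libraries. Leaving these out in turn gave 4475 to 5151 higher and 3925 to 4472 lower genes, 1900 to 1984 past 1, 9429 to 10073 for the 8 h effect, 12464 to 12898 for the 22 h effect and 6025 to 6397 at 500 nM. The count past 1 was 1837 to 2234, and all 1971 genes kept their sign under every alternative that tested them, except 1 of them with only R1881 replicates 6 and above (a stricter filter left 1947 of them). The split into higher and lower calls moved from 5275 and 4078 to 4475 and 4472 without replicate 3 of the drug at 22 h, and lower calls were the majority with only replicates 1 to 5 (4081 and 4140) and with the replicate block on them (3990 and 4071). The median of all genes moved to -0.12 with upper quartile scaling for the 8 to 22 h change with R1881 plus darolutamide. The share of increases among called 8 to 22 h changes went from 48.1% to 33.7% with upper quartile scaling for R1881 plus darolutamide, and from 53.3% to 39.3% with library totals for DMSO. The dose difference was called for 1156 genes and for 2586 with a GC covariate. The cause was not tested.

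Replicate numbers are shared by groups, but only 14 of 30 pairs of same-numbered libraries from different groups deviated together (r over 0.1). The median r was 0.07 and the range was -0.80 to 0.79, so replicate numbers were not taken as pairs. Between the drug-treated groups at 8 and 22 h, r was 0.41, 0.04, 0.79, 0.42 and 0.56 for replicates 1 to 5, and replicate 5 was over 0.1 between all groups. With a replicate block over replicates 1 to 5 the count was 8061, beside 8221 for the same libraries without it, a fit added after seeing the data.

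Counts are relative to the other genes of a library, and at the depth of these libraries 55% of simulated differences of 0.5 were recovered.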

Other observations

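These genes were chosen after their values were seen. The noncoding RNA MIR2052HG was 3.43 to 5.87 CPM with R1881 and 17.8 to 24.0 CPM with R1881 plus 2 µM darolutamide at 8 h. At 22 h it was 0.150 to 0.664 CPM and 11.7 to 15.0 CPM, so both arms were lower at 22 h and drug-treated libraries stayed above R1881 libraries. DRAIC, another noncoding RNA, crossed over. It was 6.16 to 10.1 CPM with R1881 and 13.2 to 16 CPM with the drug at 8 h, and 26.8 to 37.8 CPM against 14.6 to 17.2 CPM at 22 h. Drug-treated libraries overlapped with DMSO at both times. HOXB13, a homeobox factor of prostate epithelium, was 128 to 188 CPM with R1881 at 8 h and 327 to 452 CPM at 22 h, against 187 to 220 and 243 to 297 CPM with the drug. The HOXB13 groups met at 8 h and were apart at 22 h, with the order turned.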
